A study of Mus musculus with 6 samples.

Results

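Imprinted growth genes are expressed from 1 parental chromosome only, because DNA methylation laid down in the egg or the sperm marks one copy. In the embryo the paternally expressed ones tend to promote growth and the maternally expressed ones to restrain it, and many of them form a co-regulated network that is turned down as organs, the heart included, stop growing after birth. The 10 genes described here were chosen by name: the ligand gene Igf2 and its neighbouring non-coding RNA H19, Dlk1 and its neighbouring non-coding RNA Meg3, the cell cycle inhibitor gene Cdkn1c, the zinc finger genes Peg3 and Plagl1, the hydrolase-like gene Mest, the receptor adapter gene Grb10 and the MAGE family gene Ndn. All 10 had a row among the 26881 genes of the expression table, and 9 of them, all but Dlk1, reached the mean level of 1 FPKM (fragments per kilobase of gene, divided by the size of the library) that was asked of a gene before it was tested. Igf2, Dlk1, Peg3, Plagl1, Mest and Ndn are expressed from the paternal copy, and H19, Meg3, Cdkn1c and, outside the brain, Grb10 from the maternal copy. FPKM values do not tell the copies apart.

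RNA-seq was done on hearts of mice at 2 weeks of age, with 3 Cfp1-cKO and 3 WT libraries. Cfp1, encoded by Cxxc1, is a CXXC zinc finger protein that binds unmethylated CG dinucleotides and brings the Setd1 histone H3 lysine 4 methyltransferases to promoters. In Cfp1-cKO mice, on a C57BL/6 background, both floxed copies of the gene are cut by a Cre driven by the Myh6 promoter. The deletion is thus limited to cardiomyocytes, and the other cells of the heart keep Cfp1. The study names WT littermates as controls in its growth comparison, and does not say whether the sequenced WT hearts came from littermates. The labels give the genotypes as CXXC1 null and Wild-type. Whether a library came from 1 heart or from several is not given in the sources used here, so the p-values measure the spread between these libraries only. The question put to the data is how the imprinted growth genes stand in hearts that lack Cfp1 in cardiomyocytes.

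Some facts of the whole series bear on every value. The libraries held 16672652 to 22700811 fragments, and Cxxc1 itself, over its whole length, stood at 9.66, 12.9 and 10.03 FPKM in WT hearts against 8.02, 9.94 and 8.74 FPKM in Cfp1-cKO hearts (log2 difference -0.26 ± 0.16 SE, adjusted p = 0.249 by limma with Benjamini-Hochberg adjustment over all tested genes, and -0.75, adjusted p = 0.0485, after the scaling described below). Heart muscle genes were high in every library, with 10 cardiomyocyte markers summing to 10600 to 19300 FPKM in WT hearts against 10100 to 13600 FPKM in Cfp1-cKO. On both scales 3 of the 10 (Tnnt2, Ryr2 and Myl3) were called lower in Cfp1-cKO and 0 higher. That is 30.0%, against 22.8% of all tested genes called as deposited and 7.26% after scaling. Their median log2 difference was -0.37 as deposited and -0.92 after scaling. The 12 lung epithelium markers, which should be absent from heart, summed to 0.421 to 3.90 FPKM in WT (3 of them were at 0 in every WT library) and to 3220 to 4900 FPKM in Cfp1-cKO. Of all 11017 tested genes, 2325 were higher and 185 lower in Cfp1-cKO when the FPKM were taken as deposited, with a median log2 difference over all genes of 0.35, whereas 355 were higher and 445 lower after the libraries were scaled to each other by the median of gene-wise ratios, with a median of -0.07. The differences of the 9 tested genes are therefore given on both scales.

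The upstream sequences of the genes that passed the test, and of the neighbour of one of them, show how unlike each other these promoters are in the letters that Cfp1 binds. Promoter windows were found in RefSeq for 8 of the 10 genes, with 15 start sites between them on GRCm38.p6. The 250 bases before the start of Meg3 (chr12:109540746-109540995, plus strand), Grb10 (chr11:12037421-12037670, minus strand) and Dlk1 (chr12:109452573-109452822, plus strand) follow, each 5′ to 3′ on the strand of its gene with every CG dinucleotide in capitals; Meg3 and Grb10 are shown because they were called, and Dlk1 because it is the near-silent neighbour of Meg3.
Meg3: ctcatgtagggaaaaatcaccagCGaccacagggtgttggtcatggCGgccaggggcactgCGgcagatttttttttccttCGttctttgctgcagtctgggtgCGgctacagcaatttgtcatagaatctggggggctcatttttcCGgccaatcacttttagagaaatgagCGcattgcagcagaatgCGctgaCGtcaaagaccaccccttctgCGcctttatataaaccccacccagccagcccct
Grb10: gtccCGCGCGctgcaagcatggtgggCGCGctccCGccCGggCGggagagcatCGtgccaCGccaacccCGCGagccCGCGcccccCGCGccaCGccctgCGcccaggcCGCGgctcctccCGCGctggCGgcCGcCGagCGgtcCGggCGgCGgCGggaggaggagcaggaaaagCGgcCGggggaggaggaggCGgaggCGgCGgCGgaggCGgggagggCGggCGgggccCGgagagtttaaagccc
Dlk1: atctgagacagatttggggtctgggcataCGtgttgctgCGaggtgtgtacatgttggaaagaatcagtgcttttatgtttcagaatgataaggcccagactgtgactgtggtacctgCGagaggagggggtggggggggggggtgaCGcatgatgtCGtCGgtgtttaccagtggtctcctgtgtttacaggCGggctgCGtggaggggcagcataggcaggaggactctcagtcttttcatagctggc
The Grb10 window holds 40 CG, more than 98.7% of the 32851 promoter windows of the same length in the RefSeq table, whose median is 6 CG. Meg3 has 10 CG and Dlk1 8, each close to the middle of that table (62.2% and 57.0% of windows hold fewer). The second start of Grb10, which lies inside the gene (window chr11:12027972-12028221), has 8 CG as well and no GC box. The printed Grb10 window also has 4 matches on either strand to the GC box GGGCGG, which 32.7% of all windows hold, and Meg3 and Dlk1 have none. The TATA box TATAAA, found in 12.4% of windows, is present in Meg3 only among the 15 windows, as a pair of overlapping matches on opposite strands just before the start. Over the 15 windows the CG count ran from 0 (a second start of Meg3) to 40. No methylation or binding was measured here, and a match in letters is a description only.

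The first question was whether the 10 genes are low in the 2-week-old heart, as their name as postnatally silenced genes says. Judged by level per gene length, 1 of them was close to silent and several were not. Igf2 had a mean of 55.0 ± 9.23 FPKM (SD, n = 3) in WT, above 98.1% of all genes in the table. H19 stood at 38.3 ± 12.4 FPKM, above 97.3% of genes. Both are thus among the well expressed genes of these WT hearts. Grb10 (15.3 ± 3.31 FPKM) and Peg3 (13.2 ± 4.70 FPKM) came next, followed by Plagl1 (8.37 ± 0.40 FPKM). Cdkn1c (3.91 ± 0.575 FPKM), Mest (2.55 ± 1.25 FPKM), Ndn (1.85 ± 0.467 FPKM) and Meg3 (1.28 ± 0.348 FPKM) formed the lower part, and their ranges overlapped from each to the next. Dlk1, at 0.0961 ± 0.0278 FPKM, was above 40.4% of genes only because many genes of the table are at or near 0. In WT the ranges also overlapped between Igf2 and H19 and between Grb10 and Peg3, while those of H19 and Grb10, of Peg3 and Plagl1, of Plagl1 and Cdkn1c and of Meg3 and Dlk1 did not. In Cfp1-cKO the same 5 genes led, in the same order (Igf2, H19, Grb10, Peg3, Plagl1), and Dlk1 was again last.

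**Figure D1:**
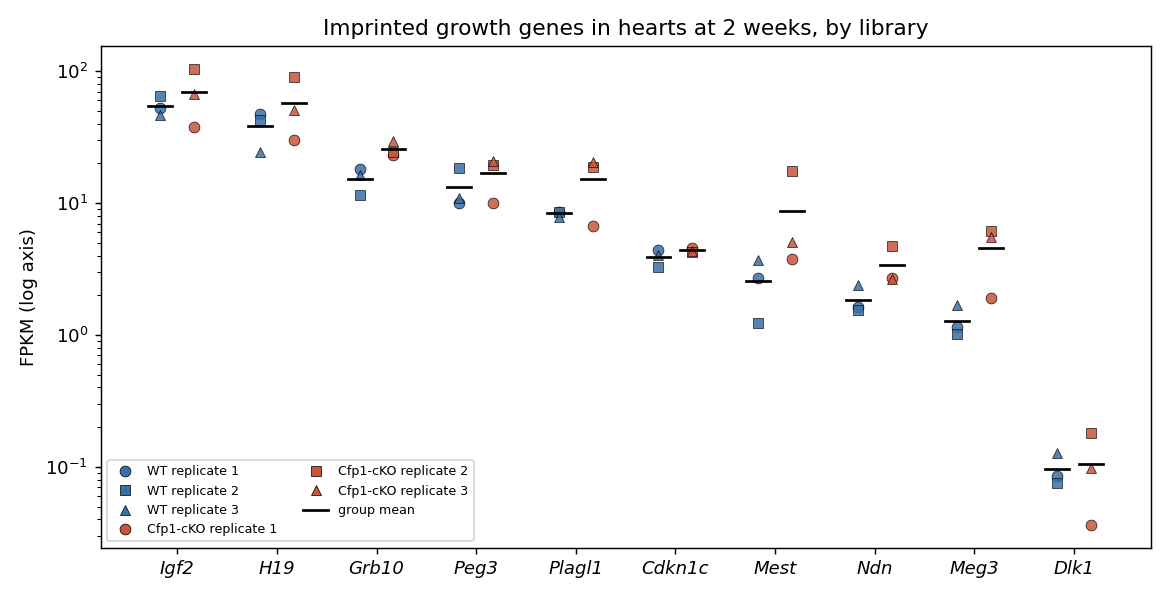
FPKM (log axis) of the 10 imprinted growth genes, ordered by WT mean, with 1 symbol per library (WT blue, Cfp1-cKO red) and a black bar for each group mean. Igf2 is highest (38.1 to 104 FPKM over the 6 libraries) and Dlk1 lowest (0.0363 to 0.18 FPKM); the Cfp1-cKO points of Meg3, Mest, Grb10 and Ndn all lie above the WT points.

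Compared with WT, 2 of the 9 tested genes rose in Cfp1-cKO hearts, Meg3 and Grb10, none fell, and 7 did not pass the test (limma on log2(FPKM + 1), adjusted p below 0.05 and an absolute log2 difference above 0.5). Over all tested genes 22.8% were called in either direction and 21.1% were called higher, so 2 of 9 is close to the share of any gene. The median log2 difference of the 9 genes was 0.60, against 0.35 over all tested genes, and 9 of 9 were above 0. On the median-of-ratios scale none of the 9 was called (1 had an unadjusted p under 0.05), with 7.26% of all genes called in either direction and 3.22% called higher, and the median was 0.16 against -0.07 over all genes. All 3 Cfp1-cKO values lay above all 3 WT values for 4 of the 10 genes as deposited, which 46.4% of all tested genes did too. After scaling they did so for none of the 10, and for 12.7% of all tested genes.

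**Figure D2:**
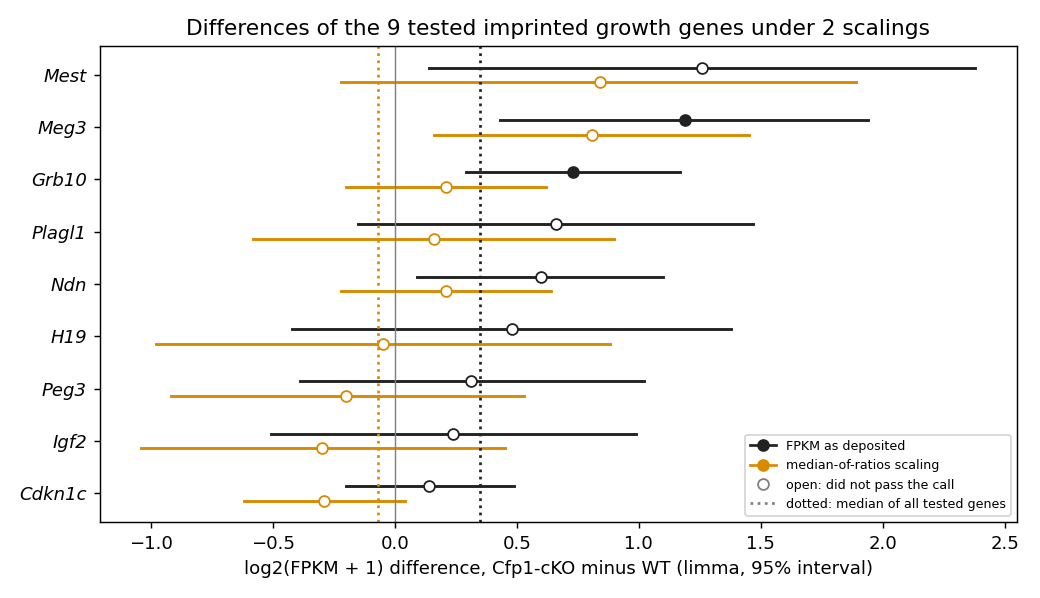
Log2(FPKM + 1) difference (Cfp1-cKO minus WT) of the 9 tested genes with 95% intervals from limma, for the FPKM as deposited (black) and after median-of-ratios scaling (orange); filled points passed the call, and dotted lines give the median of all tested genes on each scale (0.35 and -0.07). Meg3 and Grb10 are the filled points, on the deposited scale only.

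Meg3 (ENSMUSG00000021268, GRCm38 chr12:109541001-109571726, plus strand) is a maternally expressed long non-coding RNA that carries growth-suppressing activity. It stood at 1.16, 1.01 and 1.67 FPKM in WT hearts against 1.90, 6.18 and 5.56 FPKM in Cfp1-cKO hearts, read from 345 to 1864 fragments. The groups did not overlap, but Cfp1-cKO replicate 1 was close to the highest WT library while the other two were more than 3 FPKM above it. Meg3 rose by 1.19 ± 0.33 SE on the log2(FPKM + 1) scale (2.27-fold, 95% interval 1.35 to 3.84, adjusted p = 0.0368 by limma), a scale that understates the change of a low gene: the ratio of the mean FPKM was 3.55. After median-of-ratios scaling the difference was 0.81 ± 0.28 and the adjusted p 0.126 by limma. The call was also lost, with differences of 0.95, 1.01, 1.15 and 1.10 and adjusted p-values of 0.128, 0.107, 0.0965 and 0.0745 by limma, when Cfp1-cKO replicate 2, Cfp1-cKO replicate 3, WT replicate 1 or WT replicate 2 was left out.

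Grb10 (ENSMUSG00000020176, chr11:11930508-12038683, minus strand) encodes an adapter that binds the insulin and insulin-like growth factor receptors and dampens their signal. It was at 18.0, 11.6 and 16.3 FPKM in WT hearts against 23.2, 24.4 and 29.7 FPKM in Cfp1-cKO. The 3 Cfp1-cKO libraries lay close together and all above WT. It rose by 0.73 ± 0.19 SE (1.66-fold, 95% interval 1.22 to 2.25, adjusted p = 0.0322 by limma). On the median-of-ratios scale, the difference was 0.21 ± 0.18 (adjusted p = 0.479 by limma) and the groups overlapped. Leaving out Cfp1-cKO replicate 1, 2 or 3 gave 0.79, 0.76 and 0.63 with adjusted p-values of 0.0531, 0.0962 and 0.0937, and leaving out WT replicate 1 or 2 gave 0.85 and 0.55 with 0.0576 and 0.0568, all by limma.

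Igf2 (ENSMUSG00000048583, chr7:142650766-142666816, minus strand) encodes insulin-like growth factor 2, the main growth-promoting ligand of fetal tissues. Its values were 52.9, 65.1 and 47.0 FPKM in WT hearts against 38.1, 104 and 67.2 FPKM in Cfp1-cKO. Both the lowest and the highest of the 6 libraries were Cfp1-cKO, 2.74-fold apart, against 1.39-fold within WT. The log2 difference was 0.24 ± 0.33 SE with a 95% interval of -0.51 to 0.99 (adjusted p = 0.586 by limma), and it turned to -0.30 on the median-of-ratios scale and to -0.10 without Cfp1-cKO replicate 2. The interval reaches from a fall to a 1.98-fold rise, and with 4245 to 9968 fragments per library it was set by the spread between Cfp1-cKO libraries and not by depth.

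H19 (ENSMUSG00000000031, chr7:142575529-142578143, minus strand) is a non-coding RNA and the host of a microRNA. It stood at 47.7, 42.9 and 24.3 FPKM in WT hearts against 29.9, 90.7 and 51.0 FPKM in Cfp1-cKO. As for Igf2, replicate 2 was the highest and replicate 1 the lowest of the Cfp1-cKO group, 3.04-fold apart, but within WT the order differed, and the lowest library of all was WT replicate 3. The log2 difference was 0.48 ± 0.39 SE (95% interval -0.42 to 1.38, adjusted p = 0.359 by limma) as deposited and -0.05 on the median-of-ratios scale.

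The 2 genes lie side by side and use common enhancers on opposite parental copies, and their ratio within a library does not depend on the scaling between libraries. Igf2 FPKM over H19 FPKM was 1.11, 1.52 and 1.93 in WT and 1.27, 1.15 and 1.32 in Cfp1-cKO. The Cfp1-cKO ratios lay inside the WT range, although the levels of both genes ran over a wider range in Cfp1-cKO. On the log2 scale the mean ratio was 0.57 ± 0.40 (SD, n = 3) in WT and 0.32 ± 0.10 in Cfp1-cKO, a difference of -0.25 (p = 0.4, exact two-sided permutation test over libraries, whose smallest possible p with 3 against 3 is 0.1).

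Dlk1 (ENSMUSG00000040856, chr12:109452823-109463336, plus strand), which encodes a membrane protein related to Notch ligands, was hardly detected. It was read from 11, 8 and 13 fragments in WT and from 4, 17 and 10 fragments in Cfp1-cKO, or 0.0857, 0.075 and 0.128 FPKM and 0.0363, 0.18 and 0.0981 FPKM. Counting error alone is wide at such numbers: exact 95% Poisson intervals were 5.49 to 19.7, 3.45 to 15.8 and 6.92 to 22.2 fragments in WT and 1.09 to 10.2, 9.90 to 27.2 and 4.80 to 18.4 fragments in Cfp1-cKO. The groups overlapped, and the lowest and the highest library were both Cfp1-cKO. The Dlk1 to Meg3 ratio was 0.0741, 0.0741 and 0.0763 in WT and 0.0191, 0.0292 and 0.0176 in Cfp1-cKO. The groups did not overlap, and the log2 ratio was lower by 1.80 in Cfp1-cKO (-3.74 ± 0.02 in WT and -5.54 ± 0.39 in Cfp1-cKO, SD, n = 3, p = 0.1, which is the smallest p the exact permutation test can give). The Dlk1 side of each ratio rests on the 4 to 17 fragments above, and the SD of 0.02 in WT does not measure their counting error.

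**Figure D3:**
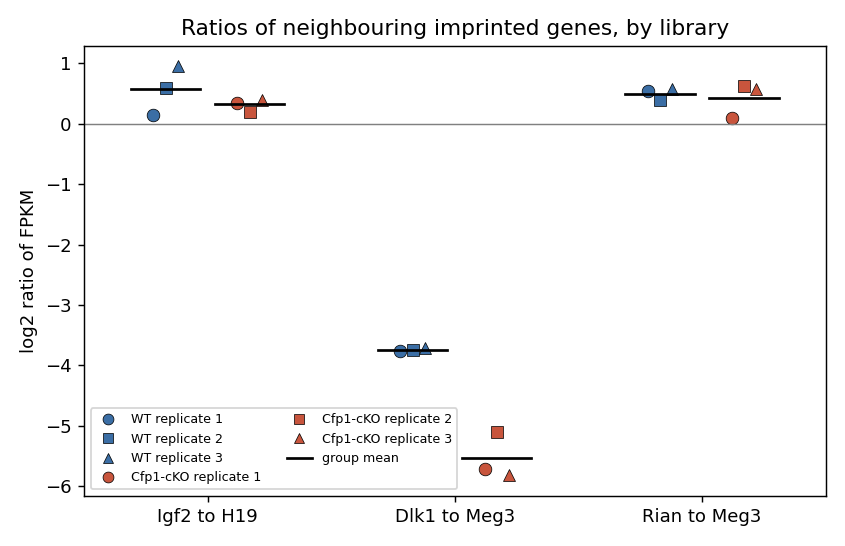
Log2 ratio of the FPKM of neighbouring imprinted genes in each library (WT blue, Cfp1-cKO red, black bars are group means). The ratio of Igf2 to H19 overlaps between the groups (means 0.57 and 0.32), that of Dlk1 to Meg3 does not (means -3.74 and -5.54), and that of Rian to Meg3 overlaps again (means 0.50 and 0.43).

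Mest (ENSMUSG00000051855, chr6:30723547-30748465, plus strand), a paternally expressed gene of mesoderm and growing fat, had the largest fitted difference of the 9 and a wide interval. Its values were 2.72, 1.22 and 3.72 FPKM in WT hearts against 3.75, 17.5 and 5.11 FPKM in Cfp1-cKO. The groups did not overlap, but the lowest Cfp1-cKO library was 3.75 FPKM beside 3.72 FPKM in the highest WT library, and Cfp1-cKO replicate 2 stood far above the rest. The log2 difference was 1.26 ± 0.49 SE (95% interval 0.14 to 2.38, adjusted p = 0.086 by limma), and 0.84 ± 0.46 (adjusted p = 0.287 by limma) on the median-of-ratios scale. Without Cfp1-cKO replicate 2 it was 0.67.

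Ndn (ENSMUSG00000033585, chr7:62346569-62350262, plus strand) encodes necdin, a growth suppressor of postmitotic cells. It stood at 1.63, 1.54 and 2.39 FPKM in WT hearts against 2.72, 4.74 and 2.66 FPKM in Cfp1-cKO, with no overlap between the groups. The log2 difference, 0.60 ± 0.22 SE (adjusted p = 0.0766 by limma), did not pass the test, and it was 0.21 ± 0.19 on the median-of-ratios scale.

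Peg3 and Plagl1 encode zinc finger transcription factors that are counted among the regulators of this network. Peg3 (ENSMUSG00000002265, chr7:6703892-6730431, minus strand) was at 10.1, 18.6 and 10.9 FPKM in WT hearts against 10.02, 19.6 and 20.8 FPKM in Cfp1-cKO. Each group held both a library near 10 FPKM and one near 19 FPKM, and the log2 difference was 0.31 ± 0.31 SE (adjusted p = 0.444 by limma), or -0.20 on the median-of-ratios scale. Plagl1 (ENSMUSG00000019817, chr10:13060504-13131694, plus strand) was at 8.60, 8.61 and 7.91 FPKM in WT hearts against 6.68, 18.8 and 20.5 FPKM in Cfp1-cKO. The WT libraries were nearly equal, Cfp1-cKO replicate 1 lay below all of them and the other two stood above 18 FPKM. Its log2 difference was 0.66 ± 0.35 SE (adjusted p = 0.177 by limma), 1.14 with an adjusted p of 0.0113 by limma when Cfp1-cKO replicate 1 was left out, and 0.16 on the median-of-ratios scale.

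Cdkn1c (ENSMUSG00000037664, chr7:143458339-143461050, minus strand), which encodes the cyclin-dependent kinase inhibitor p57, was the steadiest of the 10. Its values were 4.41, 3.28 and 4.03 FPKM in WT hearts against 4.56, 4.27 and 4.36 FPKM in Cfp1-cKO. The Cfp1-cKO libraries differed by 1.07-fold at most. The log2 difference was 0.14 ± 0.15 SE with a 95% interval of -0.20 to 0.49 (adjusted p = 0.475 by limma), and -0.29 ± 0.14 (95% interval -0.62 to 0.04, adjusted p = 0.242 by limma) on the median-of-ratios scale, where all Cfp1-cKO values lay below the WT values, as they did for 19.5% of tested genes.

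The library kit did not mark strand, and part of some genes' exons is shared with other annotated genes (GENCODE M21), so their reads cannot be fully told apart. The shared share of exonic bases was 64.5% for Igf2 (Gm49394 on the same strand and Igf2os on the other), 30.7% for Cdkn1c (Gm44732), 23.1% for Mest (Copg2), 9.15% for H19 and 8.29% for Meg3. It was 0.486% for Plagl1, and no exonic base was shared for Dlk1, Peg3, Grb10 and Ndn.

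The libraries did not contribute evenly to these values. Cfp1-cKO replicate 2 was the highest of the 6 libraries for 6 of the 10 genes (Igf2, H19, Dlk1, Meg3, Mest and Ndn), while 34.2% of all tested genes were highest there. Cfp1-cKO replicate 1 was the lowest for 4 of the 10 (Igf2, Dlk1, Peg3 and Plagl1), against 9.05% of all tested genes. So the Cfp1-cKO group held, for several of these genes, the extremes on both sides.

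Markers of other cell types moved with the same libraries. All 6 proliferation markers were highest in Cfp1-cKO replicate 2, where they summed to 37.2 FPKM, against 4.85 and 3.73 FPKM in the other Cfp1-cKO libraries and 1.02 to 3.19 FPKM in WT, and none of the 4 tested was called. The 5 fat markers summed to 10.9 FPKM in Cfp1-cKO replicate 2 and to 4.06 FPKM in WT replicate 3, the highest library of each group for Mest, and to at most 0.619 FPKM elsewhere. The 10 fibroblast markers summed to 531 to 876 FPKM in Cfp1-cKO, highest in replicate 2, and to 326 to 462 FPKM in WT, with 1 of 10 called higher and none lower. Their part in the levels of the imprinted genes was not tested. Of the 12 lung epithelium markers, 9 were lowest in replicate 1 and highest in replicate 3 among the Cfp1-cKO libraries. So were 3 of the 10 imprinted growth genes, Grb10, Peg3 and Plagl1, and 15 of the 59 other imprinted genes with a row. Over all tested genes this order was not counted, but 34.7% of them were highest of the 6 libraries in Cfp1-cKO replicate 3. Sftpc, the surfactant protein C gene, stood at 1202, 2164 and 3232 FPKM in replicates 1, 2 and 3. Scgb1a1, a secretory cell gene of the airways, was at 2904, 405 and 671 FPKM and alone set the order of the summed level (4530, 3220 and 4900 FPKM). The part of lung RNA in the levels of the imprinted genes was not tested. All 11 tested lung epithelium markers were called higher, and so were 4 of 4 tested mesothelium markers (12.9 to 30.5 FPKM summed in Cfp1-cKO, 2.93 to 4.56 in WT) and 3 of 4 tested leukocyte markers (404 to 787 FPKM and 46.0 to 61.2 FPKM). In whole tissue, fewer cells of a type and less RNA per cell cannot be told apart. The erythroid markers ran from 59.7 to 1010 FPKM in WT and from 233 to 1890 FPKM in Cfp1-cKO, and none was called.

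**Figure D4:**
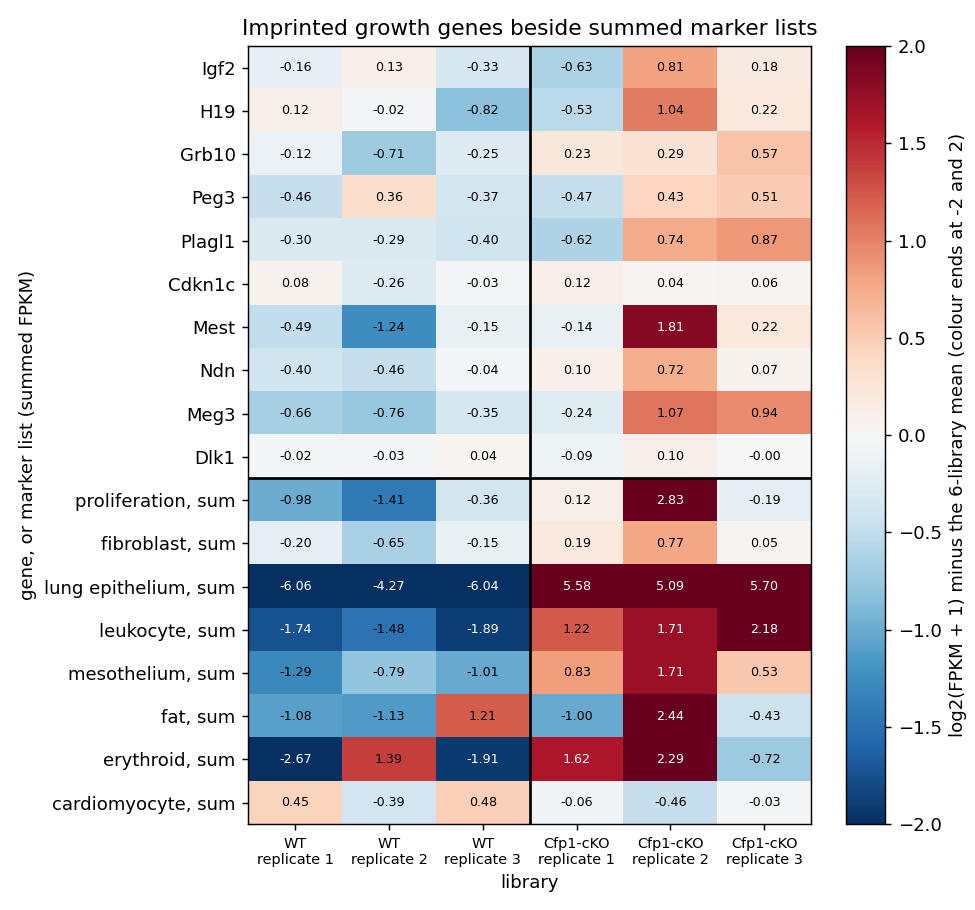
Log2(FPKM + 1) minus the mean over the 6 libraries, for the 10 genes (above the line) and for the summed FPKM of 8 marker lists (below it), with columns for libraries and colour ending at -2 and 2. Mest (1.81), Meg3 (1.07), H19 (1.04) and Igf2 (0.81) are high in Cfp1-cKO replicate 2, as is the proliferation sum (2.83). Meg3 is also high in Cfp1-cKO replicate 3 (0.94), where the proliferation sum is not (-0.19). The lung epithelium sum is at 5.09 to 5.70 in the 3 Cfp1-cKO libraries. It adds up unlike orders, since Scgb1a1 was highest in Cfp1-cKO replicate 1 while 9 of the 12 markers were lowest there and highest in replicate 3.

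Imprinted genes come in domains under common control, and the neighbours of the 10 genes can be set beside them. The domain of Meg3 is transcribed from the maternal copy into a run of non-coding RNAs, and Rian, which lies behind Meg3, had 1.69, 1.32 and 2.51 FPKM in WT hearts against 2.02, 9.51 and 8.25 FPKM in Cfp1-cKO. These are nearly the same proportions as for Meg3: the log2 ratio of Rian to Meg3 was 0.50 ± 0.10 in WT and 0.43 ± 0.29 in Cfp1-cKO (p = 0.9, exact two-sided permutation test). Rian itself did not pass the test (log2 difference 1.25 ± 0.43 SE, adjusted p = 0.0652 by limma, and 0.84 after scaling). Mirg, the last of the run, was low, at 0.0544 to 0.124 FPKM in WT hearts against 0.218 to 0.707 FPKM in Cfp1-cKO, and was not tested. The paternally expressed Rtl1 stayed at 0.0611 FPKM or less in all libraries, as low as Dlk1.

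Next to Grb10 lies Ddc, which encodes the decarboxylase that makes dopamine and serotonin and has a paternally expressed transcript in the heart. Ddc was at 3.88, 3.54 and 4.13 FPKM in WT hearts against 2.06, 1.65 and 3.01 FPKM in Cfp1-cKO. It fell while Grb10 rose: its log2 difference was -0.60 ± 0.19 SE (adjusted p = 0.0481 by limma), and on the median-of-ratios scale, where Grb10 was not called, it was -1.0 (adjusted p = 0.013 by limma). As deposited, the Ddc call held in 1 of 6 removals of a single library, that of Cfp1-cKO replicate 3, and the differences ran from -0.77 to -0.47. Ddc was the 1 gene of the wider imprinted list that was called lower, and it is named here because of its values. Copg2, whose end overlaps Mest, was at 6.43 to 9.73 FPKM in WT hearts against 10.7 to 11.8 FPKM in Cfp1-cKO (log2 difference 0.37 ± 0.18, adjusted p = 0.141 by limma, turning to -0.12 after scaling). Zim1, a neighbour of Peg3, was at 0.570 to 0.588 FPKM in WT hearts against 0.381, 0.771 and 1.13 FPKM in Cfp1-cKO. Its order of libraries was that of Peg3 within Cfp1-cKO only. In WT Zim1 was level, while Peg3 stood at 10.1, 18.6 and 10.9 FPKM. In the domain of Ndn, Snrpn was at 13, 14.4 and 17.9 FPKM in WT hearts against 8.08, 11.8 and 14.5 FPKM in Cfp1-cKO, and it passed the test on the median-of-ratios scale only (-0.90, adjusted p = 0.0279 by limma, and -0.39, adjusted p = 0.195, as deposited).

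**Figure D5:**
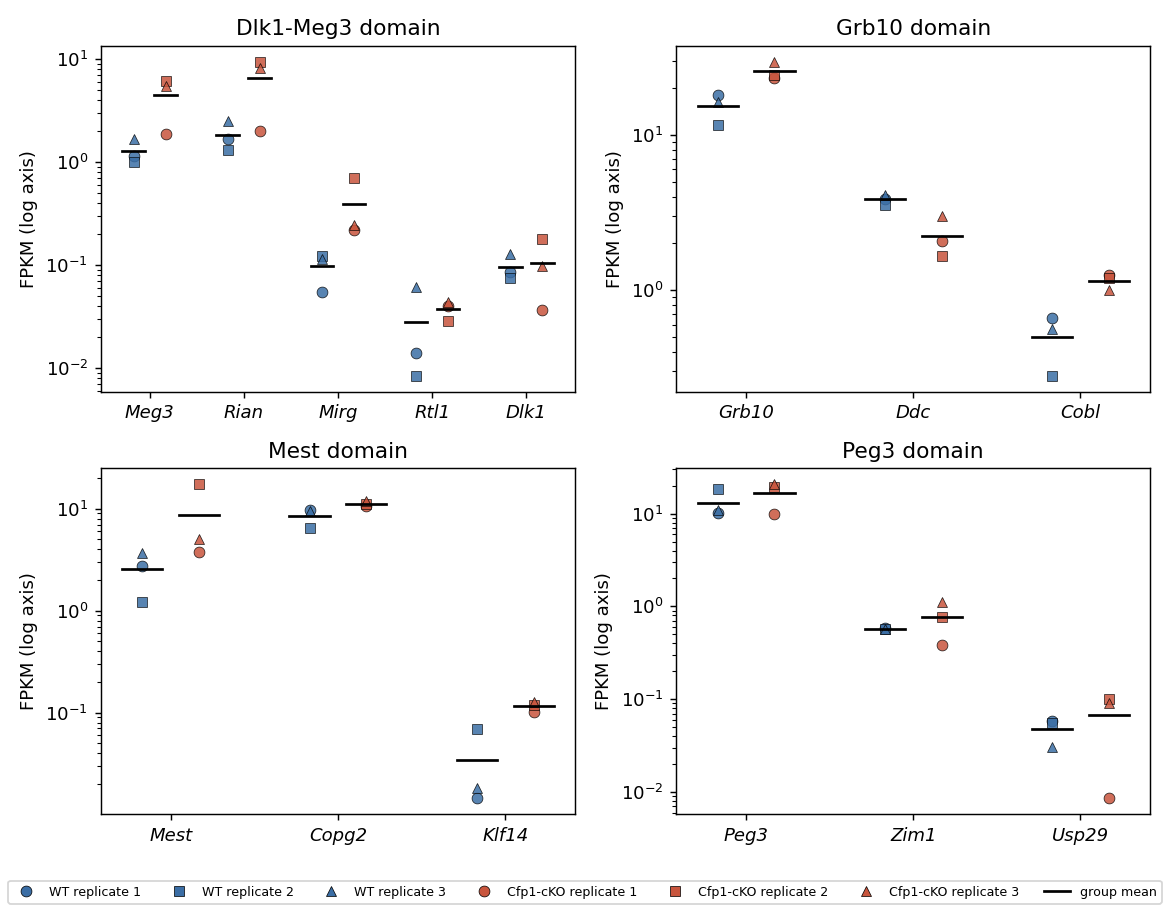
FPKM (log axis) of genes of 4 imprinted domains in each library (WT blue, Cfp1-cKO red, black bars are group means). Rian follows Meg3 while Dlk1 and Rtl1 remain below 0.2 FPKM; Ddc lies lower in Cfp1-cKO (1.65 to 3.01 FPKM) than in WT (3.54 to 4.13 FPKM), opposite to Grb10.

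Of a wider list of 63 other imprinted genes, 59 had a row and 35 were tested. As deposited, 7 rose, 1 fell (Ddc) and 27 did not pass, with a median log2 difference of 0.41 against 0.35 over all genes, so that 22.9% were called, as against 22.8% of all tested genes. On the median-of-ratios scale 1 was higher, 2 were lower (Ddc and Snrpn) and 32 did not pass, with a median of 0.01 (8.57% called, against 7.26% of all tested genes). The largest calls were Nap1l5, a nucleosome assembly protein-like gene (1.05, adjusted p = 0.0453 by limma), Osbpl5, which encodes an oxysterol-binding protein (0.98, adjusted p = 0.012 by limma), and the paraoxonase genes Pon2 (0.95, adjusted p = 0.00639 by limma) and Pon3 (0.83, adjusted p = 0.0248 by limma). After scaling Nap1l5, Pon2 and Pon3 differed by 0.71, 0.47 and 0.36 and were not called. Osbpl5 stood at 1.62, 1.27 and 2.25 FPKM in WT hearts against 3.78, 4.91 and 4.30 FPKM in Cfp1-cKO, and it was the 1 gene of the list that was called higher on both scales (0.59, adjusted p = 0.0484 by limma, after scaling). When each library was left out in turn, Pon2 was called in all 6 cases, Osbpl5 in all but that without Cfp1-cKO replicate 2 (adjusted p = 0.0546 by limma), Pon3 in all but those without Cfp1-cKO replicate 2 or 3, and Nap1l5 only without Cfp1-cKO replicate 3.

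The axis in which Igf2, Grb10 and the maternally expressed Igf2r act was examined as a list of 21 genes, of which 20 had a row and 16 were tested. In it 5 genes rose, none fell and 11 did not pass, or 31.2% called, against 22.8% of all tested genes, with a median log2 difference of 0.41 against 0.35. After scaling 1 of 16 was called (6.25%, against 7.26% of all tested genes) and the median was 0.02. The other ligand, Igf1, was at 3.15, 3.61 and 3.89 FPKM in WT hearts against 3.89, 8.45 and 6.91 FPKM in Cfp1-cKO, and it did not pass (0.65 ± 0.24 SE, adjusted p = 0.0758 by limma, and 0.20 after scaling). Among the receptors, Igf2r, which clears Igf2 from the cell surface, went from 12.9, 14.0 and 15.7 FPKM to 18.99, 24.3 and 28.4 FPKM (0.70 ± 0.18, adjusted p = 0.0295 by limma, and 0.18, adjusted p = 0.483, after scaling), while the signalling receptor gene Igf1r (0.40, adjusted p = 0.0917) and the insulin receptor gene Insr (-0.14, adjusted p = 0.659) did not pass in the same fit (after scaling Igf1r was level and Insr differed by -0.64). Igf2r is named after its values were seen, and its call was lost without Cfp1-cKO replicate 2 or 3 or WT replicate 1 or 2 (adjusted p up to 0.106 by limma). Airn, the non-coding RNA that runs antisense through the paternal copy of Igf2r, was at 1.85 to 3.21 FPKM in WT hearts against 3.67 to 5.44 FPKM in Cfp1-cKO (0.62, adjusted p = 0.0522 by limma, and 0.21 after scaling), and reads of the overlapping pair cannot be told apart without strand.

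The other 4 genes that rose were binding proteins, which hold the ligands outside cells. Igfbp2 was at 0.0716, 0 and 0.0902 FPKM in WT hearts against 4.31, 1.56 and 1.92 FPKM in Cfp1-cKO (1.70 ± 0.27 SE, adjusted p = 0.00725 by limma), and it was the 1 gene of this list called on the median-of-ratios scale as well (1.51, adjusted p = 0.024 by limma). It was nearly absent from WT hearts and highest in Cfp1-cKO replicate 1, the library that was lowest for Igf2. The airway gene Scgb1a1 had the same order within Cfp1-cKO (2904, 405 and 671 FPKM) and was at 1.45 FPKM or less in WT. In contrast, 9 of the 12 lung epithelium markers were lowest in replicate 1 of Cfp1-cKO. The part of lung RNA in the level of Igfbp2 was not tested. Igfbp7 (1.00), Igfbp4 (0.77) and Igfbp6 (0.74) rose with adjusted p-values of 0.018, 0.0296 and 0.0291 by limma as deposited, but not after scaling (0.46, 0.26 and 0.25). Igfbp2 was called whichever library was left out, Igfbp7 in all cases but that without Cfp1-cKO replicate 2 (adjusted p = 0.0644 by limma), Igfbp6 not without Cfp1-cKO replicate 1 or 2 or WT replicate 1, and Igfbp4 not without Cfp1-cKO replicate 2 or 3 or WT replicate 1 or 2. Igfbp3 was at 35.6, 104 and 27.0 FPKM in WT hearts against 19.6, 10.8 and 32.7 FPKM in Cfp1-cKO, and Igfbp5 at 18.2, 79.1 and 22.4 FPKM and 19.3, 34.4 and 25.9 FPKM. In both of them WT replicate 2 stood far above the other WT libraries, and neither passed the test (adjusted p = 0.104 and 0.653 by limma).

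Genes that keep or erase the methylation of imprints were examined as a list of 18, of which 14 were tested. As deposited 1 of the 14 was called (7.14%, against 22.8% of all tested genes), with a median log2 difference of 0.29 against 0.35, and none after scaling (2 had an unadjusted p under 0.05). The gene that rose was Zfp57, a zinc finger gene whose protein guards imprints in the embryo, from 0.477, 0.448 and 0.924 FPKM in WT to 1.37, 2.38 and 1.32 FPKM in Cfp1-cKO (0.72 ± 0.21 SE, adjusted p = 0.0419 by limma), and it was not called after scaling (0.46, adjusted p = 0.174 by limma) or in 5 of 6 removals of a single library, all but that of WT replicate 3 (adjusted p up to 0.135 by limma). The maintenance methyltransferase gene Dnmt1 was at 1.39 to 2.08 FPKM in WT hearts against 2.27 to 4.98 FPKM in Cfp1-cKO and did not pass (0.70, adjusted p = 0.0602 by limma, and 0.31 after scaling). Ctcf, whose protein insulates Igf2 from its enhancers on the maternal copy, differed by 0.24 (adjusted p = 0.283 by limma) as deposited and by -0.24 after scaling.

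Close relatives of the 10 genes that are not imprinted were read in the same way, and 6 of 9 were tested. None was called as deposited, against 22.8% of all tested genes (1 had an unadjusted p under 0.05). After scaling 1 of the 6 was called (16.7%, against 7.26% of all tested genes). With 6 genes these shares say little. The p57 relatives Cdkn1a (p21) and Cdkn1b (p27) differed by -0.30 and -0.37 (adjusted p = 0.482 and 0.18 by limma), and Cdkn1b was called lower after scaling (-0.88, adjusted p = 0.0378 by limma) from 16.8, 19.2 and 15.6 FPKM in WT hearts against 9.77, 13.4 and 16.7 FPKM in Cfp1-cKO. The Grb10 relative Grb14 (0.19), the Plagl1 relative Plagl2 (0.37) and the Ndn relative Maged1 (0.36) had adjusted p-values of 0.476, 0.135 and 0.202 by limma; after scaling they differed by -0.30, 0.05 and -0.17, and Cdkn1a by -0.84.

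Last, for each of the 9 tested genes the 3 tested genes with the most similar course over the 6 libraries were found, by the root mean square difference of log2(FPKM + 1) after centring each gene on its own mean. For Meg3 the nearest was Rian (0.166), ahead of Clec7a (0.171) and Itih4 (0.18), so that the neighbour on the chromosome was also the nearest of 11017 genes in course. H19 had Igf2 as the third nearest (0.262), after Gm28609 (0.218) and CAAA01147332.1 (0.229), while the nearest to Igf2 were Vamp7 (0.101), Psat1 (0.15) and Gm28609 (0.168). For Mest they were Fscn1 (0.199), Col18a1 (0.229) and Aldh1a2 (0.233). Plagl1 had Gm25632 (0.174), Fbn2 (0.196) and Nkx2-5 (0.197), and Peg3 had Tmem252 (0.127), Mid1ip1 (0.131) and Nectin2 (0.143). The nearest to Grb10 were Gm29093 (0.0239), Rps6kb2 (0.0628) and Rfng (0.0666), to Ndn Pcgf6 (0.0571), Pepd (0.0572) and Pkhd1l1 (0.0702), and to Cdkn1c Znrd1as (0.0476), Mtpap (0.048) and Pecr (0.0493). The libraries share depth and scaling across all genes, and the likeness over 6 points is a description only.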

How the data were processed

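RNA-seq values of 6 mouse heart libraries (3 Cfp1-cKO, 3 WT) were taken as FPKM that the authors computed and deposited in a pair of tables, equal in all 26881 genes, with coordinates of GRCm38. The study's text names Bowtie2, TopHat and DESeq and a chicken genome, and the submitters' processing notes list CASAVA, Bowtie2 2.2.3, HISAT2 2.1.0, TopHat2, HTSeq 0.6.0 and DESeq2 without roles; the library kit (TruSeq RNA) does not mark strand, and the extraction text in the labels speaks of retina. No count table was used here. With exonic lengths of GENCODE M21, 23978 of the 26881 genes gave whole fragments in every library (within 0.02). For 2851 more genes, H19 among them (2372 bases in place of 2460), a length was searched for that made the fragments whole. Both together are 99.81% of genes, a share that this search partly fixed. The library totals given here come from the GENCODE lengths, and the fragments from the length kept for each gene.

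A gene was tested if its mean over the 6 libraries reached 1 FPKM, on log2(FPKM + 1), by limma 3.58.1 (R 4.3.3) with its trended prior and Benjamini-Hochberg adjustment over all 11017 tested genes; the threshold of 0.05 on the adjusted p and of 0.5 on the absolute log2 difference follows the study. The fit was tested on simulated data. Ratios were compared with exact permutation tests in scipy. Median-of-ratios scaling, other pseudocounts and filters, removal of mitochondrially encoded and haemoglobin genes, other priors, array weights, voom on recovered fragments, a block by replicate number and removal of each library were alternatives. Replicate libraries differed by far more than sampling noise (chi-square per degree of freedom of 32.1 to 83.0), so each counts as 1. The members and lists were chosen with earlier results of these data known. Named were all members, Cxxc1, up to 4 called genes of each list by size of difference, tested relatives and the 3 nearest genes in course; other genes are neighbours or were named after their values were seen. Promoter sequences come from RefSeq (GRCm38.p6).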

Additional observations from a re-analysis of the deposited data

How the results depend on the processing

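Most counts of calls moved with the scaling between libraries. Of the imprinted growth genes called (2 as deposited), 0 were left after median-of-ratios scaling, with no filter beyond an FPKM above 0 or without mitochondrially encoded and haemoglobin genes, and 6 were called with array weights; all genes called came to 800, 1609, 1559 and 4399 in the same order (2510 as deposited), other imprinted genes to 3, 3, 4 and 15 (8 as deposited), insulin-like growth factor axis genes to 1, 2, 3 and 9 (5 as deposited) and imprint maintenance genes to 0, 0, 0 and 4 (1 as deposited). Leaving out 1 library at a time gave 588 to 2789 genes in all (588 without Cfp1-cKO replicate 2, 680 without WT replicate 1, 1086 without Cfp1-cKO replicate 3), 0 to 2 of the imprinted growth genes, 1 to 8 of the other imprinted genes, 1 to 5 of the axis and 0 to 2 of the maintenance genes. The difference turned negative after median-of-ratios scaling for Igf2 (-0.30), H19 (-0.05), Cdkn1c (-0.29) and Peg3 (-0.20); leaving out 1 library moved Igf2 between -0.10 and 0.61, Cdkn1c between 0.05 and 0.22, H19 between 0.08 and 0.87 and Peg3 between 0.14 and 0.63. The cause was not tested. The 3 correlations of deviations between libraries with the same replicate number were 0.108, 0.0361 and 0.104, so the numbers were not taken to pair the libraries; with them as a block 1749 genes were called, both Meg3 (adjusted p = 0.0498 by limma) and Grb10 (adjusted p = 0.048) among them, with 3 genes of the axis and 0 of the maintenance list. Both ratios kept their direction without any single library (Igf2 to H19 between -0.46 and -0.06, Dlk1 to Meg3 between -2.03 and -1.66). With a pseudocount of 1 the Igf2 to H19 difference was -0.24. That of Dlk1 to Meg3 was -1.18, but this setting cannot check the ratio. Dlk1 was at 0.18 FPKM or less, so its side was nearly constant and the value restates the Meg3 difference of 1.19. Depth limits Dlk1 most, at 4 to 17 fragments per library, and then Mest, Ndn and Cdkn1c, with 91, 107 and 126 fragments in their lowest libraries.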

Other observations

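Imprinted genes below the level asked of a tested gene can be given as values only, and those named here were picked after their values were seen. Of the 59 other imprinted genes with a row, 24 were below it. Cobl, a neighbour of Grb10, was at 0.660, 0.280 and 0.566 FPKM in WT hearts against 1.25, 1.2 and 0.995 FPKM in Cfp1-cKO, and Atp10a, near Ndn, at 0.371, 0.256 and 0.626 FPKM and 0.910, 1.07 and 0.994 FPKM. Slc22a18, from the domain of Cdkn1c, was at 0.130, 0.0312 and 0.131 FPKM in WT hearts against 0.604, 0.353 and 0.980 FPKM in Cfp1-cKO. In these 3 genes the groups did not overlap, which 46.4% of the tested genes also showed in this direction. The share among genes below the level for a test was not computed. Ins2, next to Igf2, was at 0 in all WT libraries and in 2 of 3 Cfp1-cKO libraries, and Kcnq1ot1, the non-coding RNA of the Cdkn1c domain, was at 0.081 FPKM or less throughout.

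Among the relatives, 3 were below the level for a test. Grb7 was at 0, 0.0315 and 0.0165 FPKM in WT hearts against 0.808, 0.927 and 1.14 FPKM in Cfp1-cKO. Dlk2 was at 0, 0.0251 and 0.0788 FPKM and 0.219, 0.199 and 0.131 FPKM. In Grb7 and Dlk2 the groups did not overlap, which 46.4% of the tested genes also showed in this direction, a share not computed for genes as low as these. Plag1 went the other way, at 1.34, 0.919 and 1.23 FPKM in WT hearts against 0.520, 0.544 and 1.02 FPKM in Cfp1-cKO, and its groups overlapped.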
